A study of Homo sapiens with 6 samples.

Results

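The Kruppel-like factors (KLFs) are transcription factors that bind GC-rich and CACCC elements through zinc fingers at the end of the protein. Of this family, 10 genes are described here, KLF2, KLF3, KLF4, KLF5, KLF6, KLF7, KLF9, KLF10, KLF11 and KLF13. They were chosen by gene symbol, with the knockdown minus control differences of these same arrays already known, so those differences between the groups are given as a description, without a test. All 10 were measured, by 32 of the 49293 probe sets on the array, and they are 10 of the 18132 genes that had a probe set with a single gene symbol. The arrays came from U87, an established human glioma cell line. Lentivirus had delivered a short hairpin RNA (shRNA) against PCGF1 to the cells of 3 arrays (U87-PCGF1-shRNA, labelled T0), and a negative control to those of the other 3 (U87-NC, labelled T1). The labels do not say what T0 and T1 mean, so any difference they mark cannot be told apart from the knockdown. The hairpin's sequence and the number of hairpins are not given in the sources used here. The cells were cultured with fetal bovine serum, and the arrays are named biological replicates, without a statement that they came from separate cultures, so errors and p-values cover only the spread among these arrays, part of which may be technical.

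KLFs fall into classes by the cofactors they recruit. KLF2, KLF4, KLF5, KLF6 and KLF7 belong to the class that recruits acetyltransferases and mostly activates transcription, KLF3 binds the corepressor CtBP, and KLF9, KLF10, KLF11 and KLF13 bind the corepressor SIN3A. Several of them are immediate-early genes that respond to serum, growth factors or TGF-beta, and KLF4 is one of the factors used to reprogramme cells to pluripotency. PCGF1 is a subunit of the Polycomb complex PRC1.1, which is brought to unmethylated CpG islands by its subunit KDM2B. The design asks which genes change with the knockdown of PCGF1.

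Promoter windows from the RefSeq table of GRCh38.p14, 250 bases before to 50 bases after a transcript start, were matched by symbol for 8 of the 10 genes, KLF3 and KLF10 being the others, and gave 13 windows. Below are the 250 bases before the start for the activator-class genes KLF2, KLF4, KLF5 and KLF6, of which KLF4, KLF5 and KLF6 had the largest differences between the groups. They are shown because CpG content and the elements that KLFs themselves bind differ between these starts. Capitals mark the GC box GGGCGG and the CACCC box CACCC, each on either strand.
KLF2, chr19:16324576-16324825, plus strand: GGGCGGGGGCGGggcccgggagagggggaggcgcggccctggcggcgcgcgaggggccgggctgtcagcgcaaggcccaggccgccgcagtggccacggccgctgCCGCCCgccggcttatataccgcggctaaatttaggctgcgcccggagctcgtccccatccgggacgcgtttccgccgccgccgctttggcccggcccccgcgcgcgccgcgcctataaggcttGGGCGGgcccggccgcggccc
KLF4, chr9:107489770-107490019, minus strand: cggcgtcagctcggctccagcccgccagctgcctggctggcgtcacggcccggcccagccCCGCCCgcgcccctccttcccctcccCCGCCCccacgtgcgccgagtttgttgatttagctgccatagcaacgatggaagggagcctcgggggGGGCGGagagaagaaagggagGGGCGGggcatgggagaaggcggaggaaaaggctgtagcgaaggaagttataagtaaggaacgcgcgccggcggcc
KLF5, chr13:73054726-73054975, plus strand: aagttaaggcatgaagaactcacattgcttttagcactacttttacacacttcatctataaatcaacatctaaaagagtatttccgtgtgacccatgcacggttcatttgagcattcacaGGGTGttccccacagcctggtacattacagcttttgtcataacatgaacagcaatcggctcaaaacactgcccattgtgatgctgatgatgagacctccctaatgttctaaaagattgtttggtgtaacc
KLF6, chr10:3785210-3785459, minus strand: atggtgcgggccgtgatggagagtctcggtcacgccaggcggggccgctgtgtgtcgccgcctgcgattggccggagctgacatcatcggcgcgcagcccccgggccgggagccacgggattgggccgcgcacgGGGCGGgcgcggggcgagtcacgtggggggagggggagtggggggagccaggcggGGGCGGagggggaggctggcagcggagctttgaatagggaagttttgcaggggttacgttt
The KLF2, KLF4 and KLF6 stretches held 4, 4 and 2 GC boxes and 0 CACCC boxes, and the KLF5 stretch held 1 CACCC box and 0 GC boxes.

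Across the whole windows, KLF2, KLF4 and KLF6 had 49, 33 and 33 CpG dinucleotides, against a median of 14 over 35116 RefSeq windows of the same length. KLF5 has 2 starts in the table. The window shown had 4 CpGs. The window of its other start had 37, with 2 GC boxes and 2 CACCC boxes, so the lack of GC boxes holds only for the start shown. KLF11 had 50 and 40 CpGs and KLF13 had 43, and these genes had the smallest differences between the groups. CpG-rich windows were thus found in members with separate groups and in members whose groups overlapped. Whether CpG count and difference are related was not tested. KLF9 had the lowest count, 1. The windows of KLF7 ranged from 5 to 30. The GC box was found in 8 of the 13 windows, which belong to 7 of the 8 genes, and in 45% of all windows. The CACCC box was found in 7 of the 13 windows, of 4 genes, and in 59.9% of all windows. Of the 9 CACCC matches in the 13 windows, 1 overlapped a GC box match. The AP-1 element TGACTCA had no match in the 13 windows (4.95% of all windows). The cyclic AMP element TGACGTCA was in 1 window of KLF11 (1.85% of all windows), and TATAAA in 1 window of KLF5 (11.5%). All motifs were searched on both strands, and a match is only a match of letters.

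The values are log2 signals after RMA, and each probe set had been centred on the median of the 6 arrays. They show differences between arrays and carry no absolute level, so the members cannot be ranked by expression and no marker can be called present or absent. PCGF1 itself checked the labels, its transcript in the knockdown arrays being at 74.3% of control (log2 difference -0.43 ± 0.06, SE, limma adjusted p = 0.00410). The two-sided exact permutation test gave p = 0.1, the smallest that 3 against 3 arrays allow. Arrays of 1 group differed from each other by a root mean square of 0.107 to 0.119 over genes, and arrays of different groups by 0.150 to 0.172. No array stood apart and none was a duplicate.

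In the PCGF1 knockdown arrays, 7 of the 10 KLF genes were lower than in every control array, 0 were higher than in every control array, and KLF3, KLF11 and KLF13 overlapped between the groups. The largest differences were those of KLF5, KLF4, KLF6 and KLF10, at 76.5%, 80.6%, 86.4% and 88.1% of control. All differences were under 1.5-fold, and in bulk RNA a smaller share of cells with the transcript and less transcript per cell cannot be told apart. The median log2 difference of the 10 genes was -0.13, beside -0.01 for all genes. Among all 18132 genes, 32.7% did not overlap between the groups, 15.5% being lower in the knockdown, and 11% passed an adjusted p of 0.05 by limma, 4.63% lower and 6.36% higher. At that threshold 4 of the 10 genes, KLF4, KLF5, KLF6 and KLF10, were counted as lower and 0 as higher. These counts describe genes chosen with this contrast in view. When 1 array was left out, only 1 to 2 of the 10 were counted, KLF5 in all 6 such fits, KLF4 without knockdown replicate 3 or control replicate 2, KLF6 without knockdown replicate 2 or control replicate 3, and KLF10 without knockdown replicate 1.

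**Figure D1:**
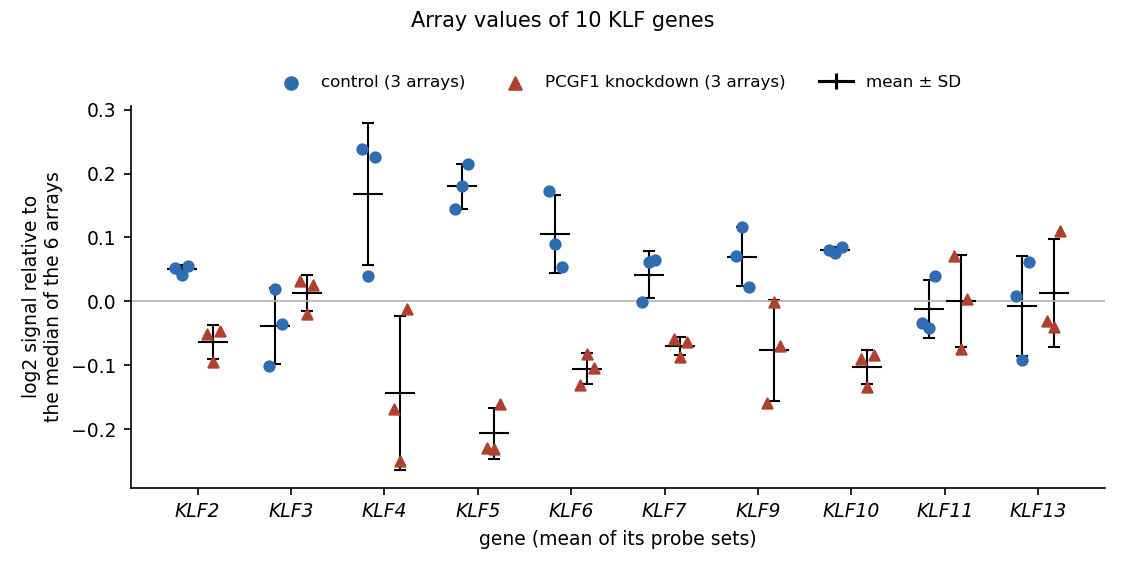
Log2 signal of each KLF gene (mean of its probe sets, relative to the median of the 6 arrays) on the 3 control arrays (circles) and the 3 PCGF1 knockdown arrays (triangles), with the mean and SD of each group. The knockdown arrays lie below all control arrays for 7 genes, and KLF3, KLF11 and KLF13 overlap.

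KLF5, a factor of proliferating epithelium and smooth muscle that activates growth genes, had the largest difference. The knockdown arrays, replicates 1 to 3, read -0.23, -0.23 and -0.16 on the log2 scale, and the control arrays 0.14, 0.18 and 0.22. The gap between the groups was wider than the spread within either. The means were -0.21 ± 0.04 and 0.18 ± 0.04 (SD, n = 3 each), a difference of -0.39 ± 0.04 (SE), and 1.49% of all genes had a larger absolute difference. All 3 of its probe sets were lower without overlap, at -0.46, -0.40 and -0.30. Of these, 11748761_a_at (-0.46) and 11748762_x_at (-0.30) share a source sequence in the annotation, so they may not be independent readings.

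KLF4, a regulator of epithelial differentiation and of cell cycle exit, varied most between arrays of the same group. Its values were -0.17, -0.25 and -0.01 in the knockdown arrays and 0.24, 0.04 and 0.23 in the control arrays. Knockdown replicate 3 and control replicate 2 lay closest to each other, and knockdown replicate 2 and control replicate 1 were farthest apart. The means were -0.14 ± 0.12 and 0.17 ± 0.11 (SD, n = 3 each), and the difference was -0.31 ± 0.08 (SE). Its 2 probe sets had the same difference, -0.31, but 11719634_a_at separated the groups and 11719633_a_at, with values from -0.19 to 0.07 in the knockdown and -0.07 to 0.36 in the control arrays, did not.

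KLF6, a widely expressed early-response factor first described as a regulator of collagen and growth control genes, was at -0.13, -0.08 and -0.10 in the knockdown arrays and 0.17, 0.09 and 0.05 in the control arrays. The groups did not overlap, and control replicate 1 was the highest. The difference was -0.21 ± 0.04 (SE). Its 5 probe sets were all negative but unequal. The probe sets 11716094_a_at, 11716093_a_at and 11716095_s_at were at -0.42, -0.27 and -0.22 and separated the groups, whereas 11760124_a_at and 11760125_a_at were at -0.08 and -0.07 and overlapped. The gene average therefore mixes unlike probe sets, and the most variable one alone was at -0.42.

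KLF2, a factor of quiescent T cells and of endothelium under flow, had a small difference with little spread. Its values were -0.05, -0.09 and -0.05 in the knockdown arrays and 0.05, 0.04 and 0.06 in the control arrays. The control arrays were nearly equal, with an SD of 0.0074, and lay above all knockdown arrays. The difference was -0.11 ± 0.04 (SE), with both probe sets alike at -0.12 and -0.11.

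KLF7, which is known for its part in neuronal growth, was at -0.06, -0.09 and -0.06 in the knockdown arrays and -0.00090, 0.06 and 0.06 in the control arrays. Control replicate 1 lay nearest to the knockdown arrays. The difference of -0.11 ± 0.04 (SE) was largest in probe sets 11715270_s_at (-0.24) and 11759429_a_at (-0.17), while the other two were at -0.04 and 0.01. With only the probe set whose name has the plain ending _at, KLF7 was at 0.01.

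Among the SIN3A-binding genes, KLF10, also known as the TGF-beta-inducible early gene TIEG1, was lower in the knockdown arrays. Its values were -0.09, -0.13 and -0.08 against 0.08, 0.08 and 0.08 in the control arrays. The control arrays were nearly equal and no knockdown array came near them. The means were -0.10 ± 0.03 and 0.08 ± 0.0048 (SD, n = 3 each), and the difference was -0.18 ± 0.04 (SE), with its 2 probe sets at -0.20 and -0.17.

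KLF9, a target of glucocorticoid and thyroid hormone receptors, was at -0.16, -0.0012 and -0.07 in the knockdown arrays and 0.07, 0.12 and 0.02 in the control arrays. Knockdown replicate 2 lay just below the lowest control array. The difference of -0.15 ± 0.05 (SE) rested mainly on 1 of 4 probe sets, 11717326_at, at -0.35. It was at -0.15, -0.11 and -0.16 in the knockdown arrays and 0.22, 0.32 and 0.11 in the control arrays, so it separated the groups clearly. The other 3 KLF9 probe sets were at -0.16, -0.06 and -0.01, and their groups overlapped.

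KLF11, a relative of KLF10 that is also induced by TGF-beta, and KLF13, an activator of the chemokine gene CCL5 in T cells, differed little. KLF11 ranged from -0.07 to 0.07 in the knockdown and from -0.04 to 0.04 in the control arrays, a difference of 0.01 ± 0.05 (SE, 95% interval -0.10 to 0.13). Its 3 probe sets disagreed, from -0.07 to 0.09. The highest, 11727145_s_at, separated the groups, with the knockdown arrays above the control arrays. KLF13 ranged from -0.04 to 0.11 and from -0.09 to 0.06, a difference of 0.02 ± 0.06 (SE, 95% interval -0.11 to 0.16). Both intervals include differences of 0.10 in either direction. KLF11 turned to -0.02 without knockdown replicate 1 and to -0.0020 without control replicate 2, and KLF13 to -0.03 without knockdown replicate 3 and -0.02 without control replicate 2.

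KLF3, the CtBP-binding repressor among the 10 genes, had the highest difference, 0.05 ± 0.04 (SE, 95% interval -0.05 to 0.15). Its values were 0.03, -0.02 and 0.03 in the knockdown arrays and -0.10, 0.02 and -0.03 in the control arrays, which overlapped. Its 5 probe sets disagreed, with 3 positive and 2 negative, from -0.12 to 0.19. The positive probe set 11729229_at, at 0.16, separated the groups, and the most variable one, 11759749_at, was at -0.04.

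**Figure D2:**
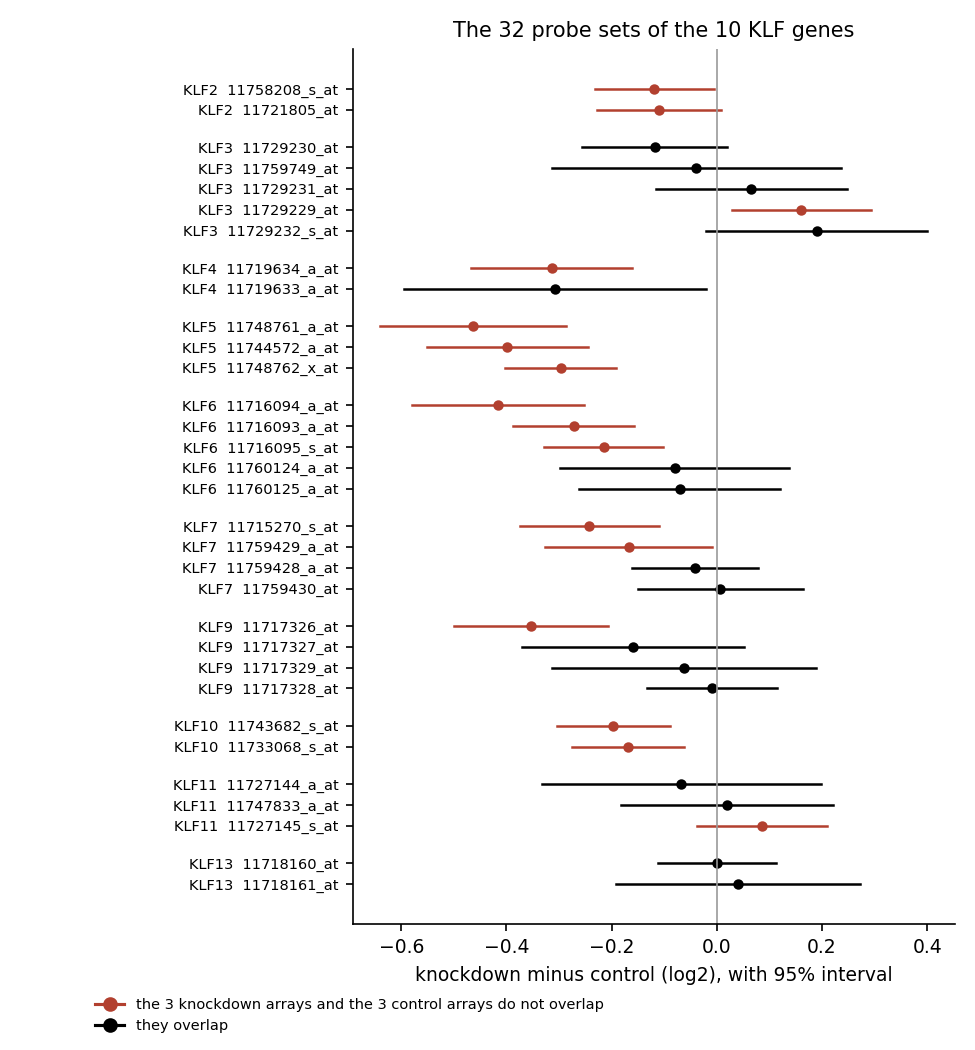
Knockdown minus control difference on the log2 scale (horizontal axis) for each of the 32 probe sets of the 10 KLF genes, with its 95% interval from limma. Red marks the probe sets whose 3 knockdown arrays and 3 control arrays do not overlap. The probe sets of KLF2, KLF4 and KLF10 lie close together, while those of KLF3, KLF6, KLF7 and KLF9 spread over 0.25 to 0.35.

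Over all probe sets of the family members, 24 of 32 were lower and 8 higher in the knockdown arrays, and 16 separated the groups, beside 29.5% of all 49293 probe sets. Of these 16, KLF3 11729229_at and KLF11 11727145_s_at were higher in the knockdown arrays and the others lower. The range between probe sets of 1 gene had a median of 0.16 among the 10 genes, against 0.14 among the 11734 genes with 2 or more probe sets. The ranges were smallest for KLF4 and KLF2, under 0.01, and largest for KLF6 and KLF9, at 0.35 and 0.34. By class, all 5 activator-class genes were lower without overlap, from -0.39 to -0.11. Of the 4 SIN3A-binding genes KLF9 and KLF10 were lower without overlap and KLF11 and KLF13 were not. Among all genes 15.5% were lower without overlap. Whether the classes differ was not tested.

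**Figure D3:**
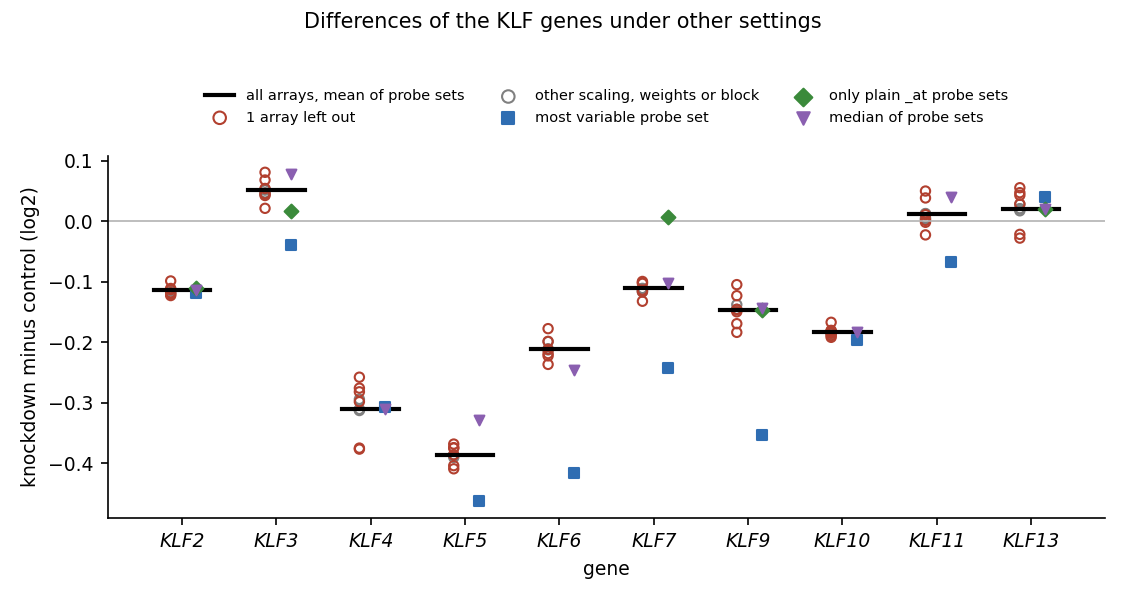
Knockdown minus control difference (log2) of each KLF gene with all arrays and the mean of its probe sets (black bar) and under each other setting (symbols). Leaving out 1 array kept the 7 lower genes negative, with KLF4 between -0.38 and -0.26. The choice of probe set moved KLF3, KLF5, KLF6, KLF7, KLF9 and KLF11 by more than any left-out array.

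The other measured KLF genes, which take in KLF8 and KLF12 of the CtBP class and KLF14 and KLF16 of the SIN3A class, did not pass the test (0 of 7 by limma, 1 at an unadjusted p under 0.05). KLF1, the erythroid factor, was at -0.20 ± 0.06 (SE), with groups that did not overlap (limma adjusted p = 0.0773). KLF14, KLF15 and KLF8 were at -0.08, -0.05 and -0.02, and KLF16, KLF12 and KLF17 at 0.03, 0.05 and 0.10. The median of the 7 genes was -0.02. The SP factors, close relatives that bind the same GC boxes, also had 0 of 9 genes past the threshold (1 at an unadjusted p under 0.05) and a median of 0.01. Of all genes 11% passed, so a count of 0 in lists this short does not set them apart. SP1, the ubiquitous GC box activator, was at 0.16 ± 0.04 (limma adjusted p = 0.0597), with the knockdown arrays above all control arrays, and it passed when the median of its probe sets replaced the mean. SP3, which competes with SP1 for the same sites, was at -0.09 ± 0.04 (adjusted p = 0.188). SP2 was at 0.07 on average over 5 probe sets that disagreed, and it passed at 0.29 with its most variable one. SP4, SP5, SP6, SP7, SP8 and SP9 lay between -0.10 and 0.06.

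**Figure D4:**
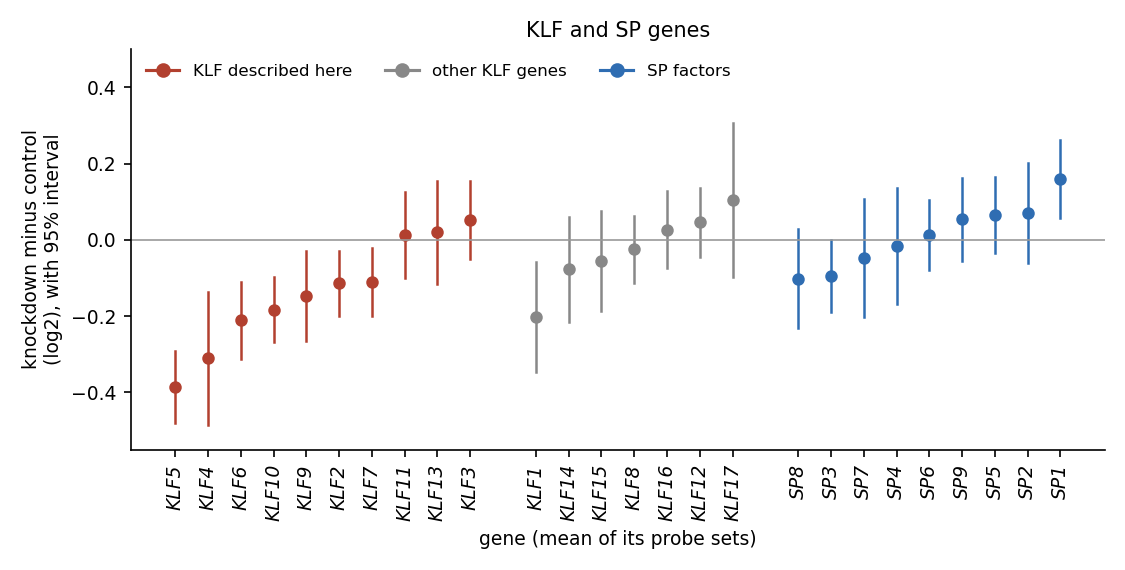
Knockdown minus control difference (log2, mean of each gene's probe sets) with its 95% limma interval for the 10 KLF genes described, the 7 other measured KLF genes and the 9 SP factors, each set in order of its value. KLF5 and KLF4 lie lowest of all genes shown, and SP1 lies highest.

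Genes that act on KLFs were read from lists of textbook partners. These lists and those below were chosen with earlier results of these data known, so their counts describe only the genes listed. Beside them, 11% of all genes passed, 4.63% lower and 6.36% higher. Of 12 corepressor genes 1 rose and 0 fell, SUDS3, a SIN3A complex subunit, by 0.21 ± 0.05 (SE, limma adjusted p = 0.0462). That call was lost without any 1 array other than control replicate 2 (adjusted p 0.0850 to 0.134) and after quantile normalization. SIN3A itself was at 0.01 and CTBP1 at 0.16 (adjusted p = 0.0874). Of 5 coactivator genes 0 passed (limma, 1 at an unadjusted p under 0.05), and EP300 and CREBBP, the acetyltransferases p300 and CBP, were at 0.11 and 0.10. CREBBP passed at 0.30 with its most variable probe set (adjusted p = 0.0463). Of 10 ubiquitin ligases and proteases 2 rose and 0 fell. FBXO32, the ligase subunit atrogin-1, rose by 0.50 ± 0.05 (adjusted p = 0.00114) in every knockdown array. FBXW7, the ligase subunit that marks KLF2 and KLF5 for degradation, rose by 0.20 ± 0.04 (adjusted p = 0.0266), a call lost without any 1 array other than knockdown replicate 2 (adjusted p 0.0744 to 0.0921). WWP1, a ligase of KLF2 and KLF5, was at -0.05.

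KLF2 and KLF4 are induced in endothelium by the kinase ERK5 through MEF2 factors, and this route is held back by the CCM proteins. Of 10 measured genes of the route 3 rose and 0 fell, with a median of 0.07. The list mixes genes that drive the route with CCM genes that hold it back, so its median gives no direction for the route. KLF2 and KLF4 themselves were lower in the knockdown arrays, and a link to these genes was not tested. MEF2C rose by 0.33 ± 0.06 (SE, limma adjusted p = 0.0144), a call lost without knockdown replicate 1 (adjusted p = 0.0547). MAPK7, which encodes ERK5, rose by 0.29 ± 0.07 (adjusted p = 0.0445), and its call was lost without any 1 array other than control replicate 2 (adjusted p 0.0545 to 0.127). HEG1, the membrane partner of the CCM complex, rose by 0.26 ± 0.04 (adjusted p = 0.0104). MAP2K5, the kinase of ERK5, was at 0.18 (adjusted p = 0.0662) over 4 probe sets, and it passed at 0.45 with its most variable one (adjusted p = 0.0100). PDCD10, a CCM subunit, was at -0.17 (adjusted p = 0.0687). Beside 9675 of all 18132 genes, 10 of the 10 endothelial markers were lower in the knockdown arrays, and 0 passed (limma, 3 at an unadjusted p under 0.05). Their mean level per array was -0.05 to -0.02 in the knockdown and 0.01 to 0.06 in the control arrays. Of the 10 epithelial markers 8 were negative and 0 passed, with mean levels of -0.05 to 0.05 and -0.02 to 0.03 per array. The 1 at an unadjusted p under 0.05, EPCAM, was higher in the knockdown arrays, by 0.29 (limma adjusted p = 0.0890). Leukocyte markers lay at -0.05 to -0.03 and 0.03 to 0.04, with 8 of 10 negative and LYZ and CD79A lower past the threshold. LYZ did not pass without any 1 array other than knockdown replicate 1 (limma adjusted p 0.0679 to 0.0880), nor CD79A without any 1 other than control replicate 3 (adjusted p 0.0822 to 0.131). The glial markers lay at -0.07 to -0.02 and 0.03 to 0.05, with 9 of 10 negative and 0 past the threshold (1 at an unadjusted p under 0.05). Since the values are centred, it cannot be read which of these markers are absent, and their part in the KLF differences was not tested.

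Immediate-early genes are induced together with KLF2, KLF4, KLF5, KLF6 and KLF10 after serum or growth factors. Of 17 measured genes 5 fell and 2 rose (median -0.10). IER3, an early survival factor, fell by 0.56 ± 0.04 (SE, limma adjusted p = 0.000436). EGR1, a zinc finger factor, fell by 0.40 ± 0.05 (adjusted p = 0.00303) over 6 probe sets from -0.80 to -0.04. JUN, a subunit of AP-1, fell by 0.26 ± 0.04 (adjusted p = 0.0102). MCL1, a survival protein, fell by 0.20 (adjusted p = 0.0251), and the call was lost without any 1 array other than knockdown replicate 3 (adjusted p 0.0659 to 0.0802). IER2 fell by 0.21 (adjusted p = 0.0488), a call lost without any 1 of the 6 arrays (adjusted p 0.0643 to 0.123) and after quantile normalization. CCN2 and CCN1, matricellular proteins, rose by 0.29 ± 0.04 and 0.21 ± 0.04 (adjusted p = 0.00410 and 0.0152). The CCN1 call was lost without knockdown replicate 3, control replicate 1 or control replicate 3 (adjusted p 0.0507 to 0.0584). FOS was at -0.15 and JUNB at -0.10 (adjusted p = 0.172 and 0.306).

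Glucocorticoids are known to induce KLF9, and TGF-beta to induce KLF10 and KLF11. Of 8 glucocorticoid genes 1 rose and 1 fell (median -0.02). DUSP1, a phosphatase of stress kinases, fell by 0.26 ± 0.04 (SE, limma adjusted p = 0.0105) and TSC22D3, the glucocorticoid-induced leucine zipper, rose by 0.21 ± 0.04 (adjusted p = 0.0131), the latter not passing without knockdown replicate 3 (adjusted p = 0.0504). FKBP5, a chaperone of the receptor, was at -0.17 and the receptor gene NR3C1 at -0.09 (adjusted p = 0.0924 and 0.211). FKBP5 passed at -0.32 with its most variable probe set (adjusted p = 0.0423). Of 11 TGF-beta genes 2 rose and 2 fell (median 0.05). TGFBR2, the type II receptor, rose by 0.27 ± 0.05 (adjusted p = 0.0141), a call just lost without control replicate 1 or 3 (adjusted p = 0.0507 and 0.0506), and SKI, a corepressor of SMADs, rose by 0.24 ± 0.04 (adjusted p = 0.0103). SMAD4 and TGIF1 fell by 0.16 and 0.14 (adjusted p = 0.0445 and 0.0411), and neither passed in any fit without 1 of the 6 arrays (adjusted p 0.0646 to 0.134 and 0.0775 to 0.119). SMAD7, which KLF10 is known to repress, was at -0.05 ± 0.04.

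Of 27 measured genes described in the literature as direct or likely KLF targets, 5 rose, 5 fell and 17 did not pass the test (median 0.04, 37% past the threshold against 11% of all genes). The list mixes targets that KLFs activate with targets that they repress. It was chosen with earlier results of these data known, so its share past the threshold is only a description of the genes listed. THBD, thrombomodulin, an endothelial target of KLF2 and KLF4, fell by 0.31 ± 0.05 (SE, limma adjusted p = 0.00953), while NOS3, the endothelial nitric oxide synthase and another KLF2 target, was at -0.11 (adjusted p = 0.203). CCND1, cyclin D1, which KLF5 activates and KLF4 represses, fell by 0.62 ± 0.05 (adjusted p = 0.000635). ODC1, which KLF4 represses, fell by 0.71 ± 0.04 (adjusted p = 0.000149), and IL1B, with the largest difference of the list, fell by 1.48 ± 0.04 (adjusted p = 2.49e-06). COL1A1, PLAU (urokinase) and ENG (endoglin), each described as activated by KLF6, rose by 0.61 ± 0.06, 0.39 ± 0.05 and 0.30 ± 0.04 (adjusted p = 0.00133, 0.00302 and 0.00360), opposite in sign to KLF6 itself. PDGFRB rose by 0.28 ± 0.06 (adjusted p = 0.0223), which did not pass once knockdown replicate 1 or 2, or control replicate 2 or 3, was dropped (adjusted p 0.0598 to 0.0767). CDKN1A, the cell cycle inhibitor p21 that KLF4 and KLF6 activate, was at 0.09 ± 0.04 (adjusted p = 0.205), and CCL5, the KLF13 target, at 0.04 ± 0.05. BIRC5, survivin, was at -0.10 (adjusted p = 0.122).

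Among 9 pluripotency factors that work with KLF2, KLF4 and KLF5, 2 fell and 0 rose. MYC fell by 0.58 ± 0.04 (SE, limma adjusted p = 0.000321) and PRDM14 by 0.25 ± 0.05 (adjusted p = 0.0154), the latter not passing without knockdown replicate 3 or control replicate 2 or 3 (adjusted p 0.0583 to 0.0593). POU5F1, SOX2 and NANOG, the other core factors, were at -0.02 ± 0.10, 0.07 ± 0.05 and 0.03 ± 0.08. Of 9 PRC1.1 subunits PCGF1 and RYBP fell and BCOR rose. RYBP was at -0.27 ± 0.04 and BCOR at 0.20 ± 0.04 (adjusted p = 0.00468 and 0.0275), BCOR not passing without any 1 of the 6 arrays (adjusted p 0.0558 to 0.0826). KDM2B, the subunit that binds CpG islands, was at -0.01 ± 0.06.

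Of the 18131 other genes, those with array values most like KLF5 were RPA2, PKIA and ZMYND11, by the root mean square difference over the 6 arrays (0.020, 0.026 and 0.030 on the log2 scale). RPA2, which helps coat unwound DNA in replication, was at -0.42, PKIA, an inhibitor of protein kinase A, at -0.41, and ZMYND11, a reader of methylated histone H3.3, at -0.37. Those most like KLF3, the member with the highest difference, were ELOVL7, HINT3 and TCTN1 (0.010, 0.011 and 0.013). Their differences were 0.05, 0.06 and 0.07, so they shared with KLF3 small values and a low control replicate 1. Differences near those of KLF5 and KLF3 follow from picking genes by their array values.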

How the data were processed

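Expression was measured on 6 Affymetrix arrays of U87 cells, 3 with PCGF1 shRNA and 3 negative controls. The deposited table holds log2 values that the authors made with RMA, per the submitters' processing notes. No version is given, and the log base is taken from RMA. The values show that each probe set was centred on the median of the 6 arrays (largest departure 4.85e-07), a step that no source describes. The genome build is not given in the sources used here. The table held 49395 probe sets, of which 102 Affymetrix controls were left out, and 44988 of the remaining 49293 had 1 gene symbol in the platform annotation, 1832 several and 2473 none.

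A gene's value was the mean of its single-symbol probe sets, giving 18132 genes. Knockdown and control were compared by two-sided tests without covariates in limma 3.58.1 (R 4.3.3, functions lmFit and eBayes), with Benjamini-Hochberg adjustment over all genes and a threshold of 0.05. Probe sets were fitted in 1 model over all 49293. No filter was applied, because centred values carry no brightness. The fit was tested on simulated data. The number of arrays limits the precision.

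The KLF members and all gene lists were chosen with earlier results of these data known, so no p is given for members. The lists held 186 entries, 174 of them measured, and lists were described by counts and medians. Named were all KLF and SP genes, PCGF1, up to 3 risen, 3 fallen and 2 uncalled genes of each other list, and the 3 genes nearest to KLF5, the member with the most negative difference, and to KLF3, the one with the most positive. Genes beyond the 2 uncalled of a list, and MCL1, IER2, THBD, PDGFRB, LYZ, CD79A and EPCAM, were chosen after their values were seen. Alternatives were quantile normalization, centring arrays, weighting the arrays, blocking on the replicate number, other probe set choices and leaving out each array. Promoter windows and their positions come from RefSeq, GRCh38.p14.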

Additional observations from a re-analysis of the deposited data

How the results depend on the processing

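The direction of PCGF1 and of KLF2, KLF4, KLF5, KLF6, KLF9 and KLF10 was the same under every alternative that measured them. KLF7 turned from -0.11 to 0.01 without the _s_at, _x_at and _a_at probe sets, and KLF3 (-0.04) and KLF11 (-0.07) turned negative with the most variable probe set. The count of KLF genes past the threshold, 4 with all arrays, was 2 with the replicate block, 1 to 2 with 1 array left out, and 0 of the 5 still measured without the _s_at, _x_at and _a_at probe sets (limma, 1 at an unadjusted p under 0.05), a setting that drops KLF4, KLF5, KLF6, KLF10 and KLF11. Of 18132 genes, 1994 passed with all arrays, 1036 with the replicate block, 980 to 1402 with 1 array left out, 293 of 8354 without those probe sets, and 3571 of 49293 as single probe sets. Of 129 listed genes, 32 passed with all arrays, 20 to 24 with 1 array left out and 5 of 55 without those probe sets. Same-numbered arrays deviated with correlations of -0.04, -0.05 and 0.01, so no pairing by number was seen. These values cannot show whether such arrays were handled together, and the labels do not say. Among the named calls the replicate block ended those of SUDS3, FBXW7, MEF2C, MAPK7, MCL1, IER2, SMAD4, TGIF1, PRDM14, BCOR, LYZ, CD79A and, among the KLF genes, KLF6 and KLF10. The most variable probe set ended the calls of KLF4 and KLF10, and KLF9 passed with it, at -0.35. This setting also ended those of BCOR, CCN1, FBXW7, IER2, MAPK7, PRDM14, SUDS3, TGIF1, LYZ and CD79A. IER2, MAPK7 and PRDM14 have 1 probe set each, so their differences did not change, only the refitted errors and adjusted p. The median over probe sets ended the calls of IER2, MCL1, PDGFRB and SMAD4, although the difference of IER2 was unchanged. Leaving out the _s_at, _x_at and _a_at probe sets ended those of JUN, LYZ, PRDM14, RYBP, SKI and SUDS3. PRDM14, whose only probe set is kept there, also had an unchanged difference. Array weights ended that of CD79A. Why the other calls ended was not tested. No filter on dim probe sets could be run on centred values.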
